A study of Homo sapiens with 16 samples.

Results

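In all, 10 genes switched on by the BRAF-MAPK pathway were examined: DUSP4, DUSP6, SPRY2, SPRY4, SPRED1, SPRED2, ETV4, ETV5, CCND1 and PHLDA1. They are 10 of the 20037 protein-coding genes of the RefSeq annotation of GRCh38.p14 that were counted in the same way. For each gene, every peak of the 14 deposited peak lists was kept that overlapped, by at least 1 bp, a window made of the gene body and 10 kb on either side. The rule itself uses no measured value.

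The peaks come from CUT&RUN, in which an antibody brings a nuclease to its target in isolated nuclei and the DNA released around the target is sequenced. All samples were WM164, a human melanoma cell line, made to overexpress either GFP (called GFP cells here) or MAFG (MAFG cells). Each line was profiled with anti-MITF in 3 libraries, anti-MAFG in 3 libraries and anti-H3K4me3 in 1 library, from about 250000 cells a sample. The IgG samples are not analysed here. Both lines shared the parental cells, the medium and the kit, so the expressed protein is the one difference the labels give. Nothing in the labels says that the 3 libraries of a group came from separate cultures, so the p-values below measure only the spread between these libraries. WM164 is known to carry an activated BRAF.

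In the RAS-RAF-MEK-ERK cascade, active ERK drives transcription of a set of genes that feed back on the cascade itself, and in melanoma with mutant BRAF their expression is widely read as a measure of pathway output. The feedback genes include phosphatases that remove phosphate from ERK (DUSP4 and DUSP6), Sprouty proteins that act between the receptor and RAF (SPRY2 and SPRY4) and SPRED proteins that bring neurofibromin to RAS (SPRED1 and SPRED2). The output genes also include the ETS transcription factors ETV4 and ETV5, the G1 cyclin CCND1 and PHLDA1. MITF is the lineage transcription factor of melanocytes and binds E-box and M-box sequences; MAFG is a small MAF protein that lacks a transactivation domain of its own and binds DNA as a dimer, often with NRF2 or a BACH protein.

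The peak lists of the lines differed in length over the whole genome. Anti-MITF lists held 19828 to 20117 peaks in GFP cells but 2116 to 2495 in MAFG cells, and anti-MAFG lists held 14879 to 26221 and 1836 to 2818. The lowest −log10 p in a list was 4.28 to 4.29 (anti-MITF) and 4.19 to 4.45 (anti-MAFG) in GFP cells, against 5.20 to 5.31 and 5.27 to 5.47 in MAFG cells. The fragments stacked at each summit, recovered from the deposited fold and p under a formula inferred from the values, had a median of 10 to 16 in the 6 GFP-cell lists and of 17 to 25 in the 6 MAFG-cell lists. The factor by which the pileup had been multiplied was 0.969 to 1 in GFP cells and 0.452 to 0.637 in MAFG cells. The lowest summit listed had 5 to 7 fragments in GFP cells and 8 to 12 in MAFG cells. The lists hold no read totals; the lowest background behind a summit, which estimates the mean coverage if the same formula holds, was 0.389 to 0.526 (anti-MITF) and 0.44 to 0.76 (anti-MAFG) fragments per position in GFP cells, and 0.448 to 0.551 and 0.389 to 0.515 in MAFG cells, so it overlapped between the lines. The part of these differences in the gene counts below was not tested. The comparison of lists of equal length below cannot decide it, because the cut sets the same total for both lines. The tissue label was checked on H3K4me3 at gene starts: 7 of 8 melanocyte and melanoma genes were marked in both lines (TYRP1 was not), and 0 of 2 keratinocyte, 0 of 2 fibroblast and 0 of 2 leukocyte genes.

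In GFP cells anti-MITF peaks were present at every one of the 10 genes. All 10 had a peak in at least 2 of 3 libraries, against 49.1% of protein-coding genes and 69.6% of those with H3K4me3 at their start. In MAFG cells 3 of the 10 did (DUSP4, SPRED2 and ETV5), against 8.46% of all genes and 12.3% of those marked. Without MAFG-cell replicate 1, or without replicate 2, the count was 1, DUSP4 (6.11% and 6.36% of all genes). Both remaining libraries then had to list a peak. With only peaks of −log10 q of at least 5 the MAFG-cell count was also 1, but the gene was ETV5 (5.48% of all genes). For 9 of the 10, each GFP-cell library had more anti-MITF peaks in the window than any MAFG-cell library, where 31.7% of all genes and 46% of marked genes did so. SPRY4 was the exception. The opposite pattern was met by 0 of the 10 (0.00499% of all genes).

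Anti-MAFG peaks followed the same layout with fewer genes. In GFP cells 9 of the 10 had a peak in at least 2 of 3 libraries (39.7% of all genes, 53.5% of marked genes), DUSP4 being the one without. In MAFG cells only ETV5 did, 1 of 10 against 5.31% of all genes and 7.13% of marked genes. Without MAFG-cell replicate 1, or without replicate 2, the count was 0 (4.12% and 4.16% of all genes), with a peak again needed in both remaining libraries. For 8 of the 10 there were more peaks in each GFP-cell library than in any MAFG-cell library (23.2% of all genes, 31.8% of marked genes), and 0 of 10 had the reverse (0.125%). DUSP4 and ETV4, with at most 1 peak in a library, were the exceptions. With only peaks of −log10 q of at least 5 the 8 became 3 (14.9% of all genes). A peak in 3 of 3 GFP-cell libraries beside 0 of 3 in MAFG cells was found at 7 of the 10 with anti-MAFG (19.3% of all genes, 26.4% of marked genes) and at 4 with anti-MITF (24.6% and 35.5%). In total the windows held 101 anti-MITF and 72 anti-MAFG peaks over the 3 GFP-cell libraries and 10 and 2 over the 3 MAFG-cell libraries.

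Neither comparison reached an adjusted p under 0.05 for any of the 10 genes. The 6 libraries can be divided 3 and 3 in 20 ways, and the two-sided exact permutation test cannot go below p = 0.1, a value reached by 6351 genes with anti-MITF and 4669 with anti-MAFG. Adjusted over 20037 genes by Benjamini-Hochberg, that smallest p became 0.315 for anti-MITF and 0.429 for anti-MAFG. When each of the 12 lists was shortened to its best 1836 peaks by −log10 p, the length of the shortest, the difference in these genes was no longer seen. Then 2 of the 10 had an anti-MITF peak in at least 2 libraries in GFP cells (DUSP4 and ETV5; 7.15% of all genes) and 2 in MAFG cells (SPRED2 and ETV5; 6.87%). ETV5 was the only gene of the 10 with anti-MAFG peaks in at least 2 libraries of either line (5.3% and 4.78% of all genes). In these shortened lists 0 of the 10 had more peaks in every GFP-cell library with either antibody (1.2% and 1.38% of all genes), and 0 had more in every MAFG-cell library (0.873% and 1.5%).

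**Figure D1:**
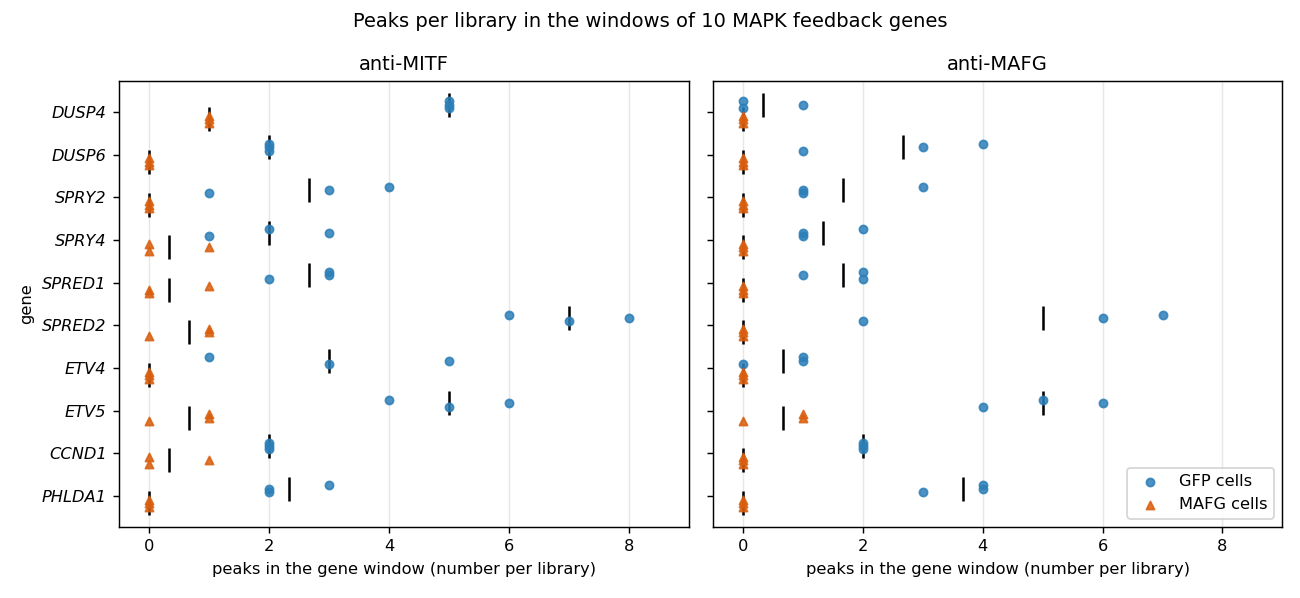
Peaks in the window of each gene (x axis, number per library) for the 10 genes (y axis), with anti-MITF on the left and anti-MAFG on the right. Circles are the 3 GFP-cell libraries, triangles the 3 MAFG-cell libraries and black ticks the group means; MAFG-cell libraries hold 0 or 1 peak at every gene, and the GFP-cell libraries reach 8 with anti-MITF and 7 with anti-MAFG, both at SPRED2.

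DUSP4 encodes a nuclear phosphatase that removes phosphate from ERK. It lies on chromosome 8 (29333064 to 29350684, GRCh38) and had 5 anti-MITF peaks in each of the 3 GFP-cell libraries and 1 in each of the 3 MAFG-cell libraries (two-sided exact permutation p = 0.1, adjusted p = 0.315). The groups did not overlap and neither count varied, but the GFP-cell libraries did not all list the same peaks. Joined over the libraries, the peaks formed 7 regions, of which 3 were called in all 3 GFP-cell libraries. With anti-MAFG the GFP-cell libraries held 0, 1 and 0 peaks and the MAFG-cell libraries none. DUSP4 was the 1 gene of the 10 with more anti-MITF than anti-MAFG peaks in every GFP-cell library (exact permutation p = 0.1, adjusted p = 0.78); 9.37% of all genes and 14% of marked genes did so. The reverse was met by 0 of the 10 (3.45% of all genes, 3.96% of marked genes).

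The strongest anti-MITF region at DUSP4, by mean rank of the authors' fold enrichment within each list, was chr8:29340001-29342493, inside the gene body with summits 8.46 to 9.92 kb from the start. It was the single region of the 10 windows called in all 3 anti-MITF libraries of both lines. In GFP cells its fold enrichment was 12.1, 8.51 and 11.9 (10.8 ± 2.02, SD, n = 3), with 19, 17 and 22 fragments at the summit. In MAFG cells the summits held 21, 20 and 22 fragments. The fragment numbers of the lines overlapped. Fragment numbers, here and below, are not corrected for the coverage of each library, and no test was made of them. Folds are not compared between lines here or elsewhere, because each depends on the scaling of its own list. In MAFG cells the region had folds of 7.41, 5.02 and 4.45 and a mean rank at 72.1% of the list, counted from the highest fold. The mean rank was 11.4% in the GFP-cell lists, which are so much longer that the ranks are not compared.

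The other anti-MITF regions of DUSP4 were called in GFP cells only. The pair upstream, chr8:29350968-29351577 and chr8:29351989-29354181, was present in all 3 lists of GFP cells and absent from those of MAFG cells, with mean folds of 6.66 ± 3.33 and 6.69 ± 1.57 (SD, n = 3). H3K4me3 at the start of DUSP4 spanned 13470 bp in GFP cells, reaching into the strongest anti-MITF region, and 8950 bp in MAFG cells (29344416 to 29353365), where it stopped short of that region. The region was therefore still called with anti-MITF in MAFG cells at a place where the 1 H3K4me3 library listed no peak.

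DUSP6, a cytoplasmic ERK phosphatase, lies on chromosome 12 (89347235 to 89352501) and its start lies inside the readthrough gene POC1B-DUSP6. Anti-MITF gave 2 peaks in each GFP-cell library and 0 in each MAFG-cell library (exact permutation p = 0.1, adjusted p = 0.315). Anti-MAFG gave 4, 3 and 1 against 0, 0 and 0 (p = 0.1, adjusted p = 0.429, exact permutation test). Both anti-MITF regions lay upstream of the start and each overlapped an anti-MAFG region. The leading one, chr12:89354270-89354867 with summits −2.14 to −1.96 kb from the start (a minus sign means upstream), had folds of 5.33, 5.88 and 7.26 (6.16 ± 0.994, SD, n = 3) at 8, 10 and 12 fragments. The leading anti-MAFG region, chr12:89346226-89346824, lay beyond the other end of the gene and was called in 2 of 3 GFP-cell libraries, at folds of 3.87 and 6.52. Both leading regions were mid-list, with mean ranks of 53.5% and 69.5%. Another anti-MAFG region, chr12:89353659-89354941, had nearly the same mean rank, 69.9%. It lay upstream of the start and was called in 3 of 3 GFP-cell libraries, at a mean fold of 5.32 ± 0.965 (SD, n = 3).

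**Figure D2:**
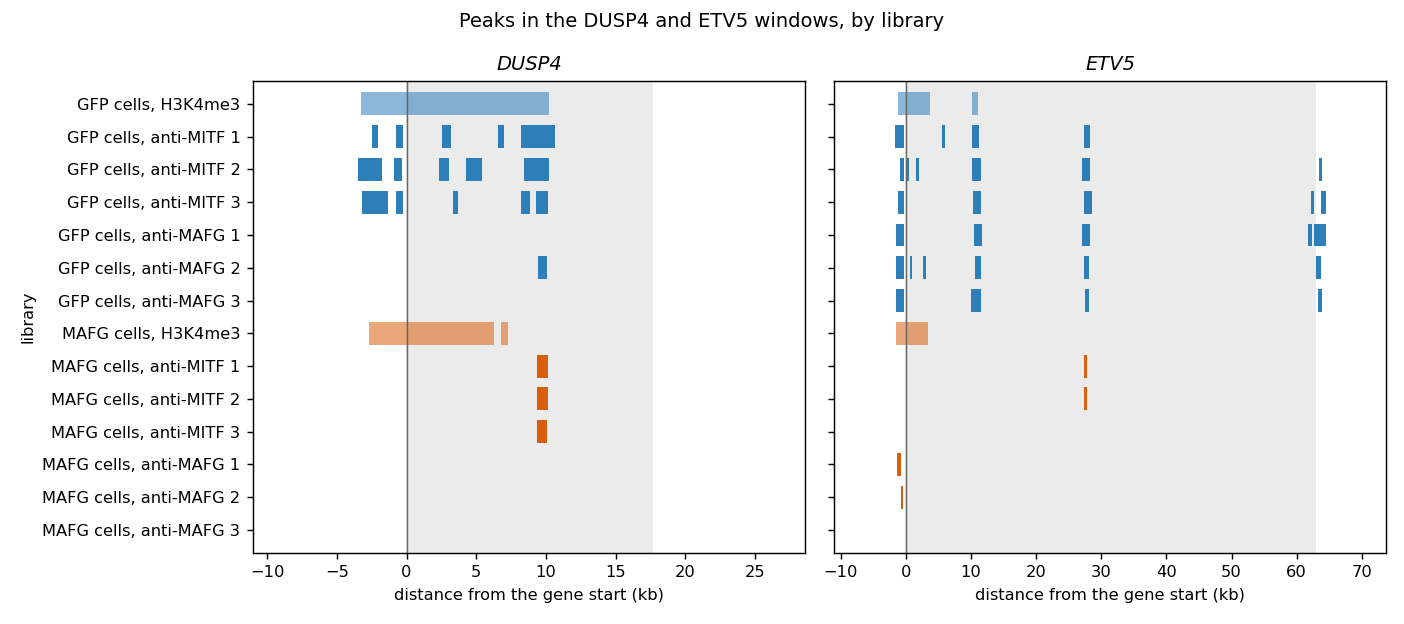
Peaks of the 14 libraries (y axis) along the windows of DUSP4 and ETV5, by distance from the gene start in kb (x axis), with GFP cells in blue, MAFG cells in orange, H3K4me3 in pale shades and the gene body in grey. At DUSP4 the anti-MITF peak 8.46 to 9.92 kb inside the gene is present in all 6 anti-MITF libraries; at ETV5 the MAFG-cell libraries keep an anti-MITF peak about 27.5 kb inside and an anti-MAFG peak just upstream, each in 2 of 3 libraries.

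SPRY2 (chromosome 13, 80335976 to 80341126) is a Sprouty protein that restrains signalling from receptor tyrosine kinases to RAF. Anti-MITF peaks numbered 4, 3 and 1 in GFP cells against 0, 0 and 0 in MAFG cells (exact permutation p = 0.1, adjusted p = 0.315), and anti-MAFG peaks 3, 1 and 1 against 0, 0 and 0 (p = 0.1, adjusted p = 0.429, exact permutation test). The regions of both antibodies overlapped upstream of the start. The leading anti-MITF region, chr13:80341109-80343306, had folds of 9.06, 8.56 and 7.05 (8.22 ± 1.05, SD, n = 3) at 17, 19 and 14 fragments. The leading anti-MAFG region, chr13:80341409-80343667, had folds of 8.74, 7.93 and 6.02 (7.56 ± 1.4, SD, n = 3) at 25, 18 and 14 fragments. Summits spanned −1.65 to −0.542 kb for anti-MITF and −1.75 to −0.499 kb for anti-MAFG, so the antibodies' summits covered nearly one stretch upstream of the gene.

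SPRY4 (chromosome 5, 142310430 to 142325021), the other Sprouty protein of the set, was the gene whose anti-MITF counts overlapped between the lines, with 2, 3 and 1 peaks in GFP cells against 0, 1 and 0 in MAFG cells (exact permutation p = 0.2, adjusted p = 0.613). Anti-MAFG gave 2, 1 and 1 against 0, 0 and 0 (p = 0.1, adjusted p = 0.429, exact permutation test). The antibodies marked different places. The anti-MITF region chr5:142325218-142326789 lay just upstream, over the antisense transcript SPRY4-AS1, with folds of 7.94, 4.79 and 5.91 (6.21 ± 1.60, SD, n = 3) at 23, 17 and 25 fragments. In MAFG cells it was called in replicate 2 only, with 36 fragments, more than in any GFP-cell library before any correction for coverage. The anti-MAFG region chr5:142315695-142318226, 6.85 to 8.94 kb inside the gene and over SPRY4-IT1, had folds of 7.33, 6.57 and 5.53 (6.48 ± 0.904, SD, n = 3) and was not called in MAFG cells.

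SPRED1 (chromosome 15, 38252836 to 38357249) binds neurofibromin and so promotes the inactivation of RAS. It had 3, 3 and 2 anti-MITF peaks in GFP cells against 1, 0 and 0 in MAFG cells (exact permutation p = 0.1, adjusted p = 0.315), and 2, 1 and 2 anti-MAFG peaks against 0, 0 and 0 (p = 0.1, adjusted p = 0.429, exact permutation test). A pair of anti-MITF regions flanked its start in all 3 GFP-cell libraries. The upstream one, chr15:38250862-38252876, had folds of 3.98, 8.39 and 6.63 (6.33 ± 2.22, SD, n = 3) and overlapped the leading anti-MAFG region, chr15:38250420-38252232, at folds of 7.88, 4.17 and 4.04 (5.36 ± 2.18, SD, n = 3). The downstream one, chr15:38253147-38255585, was the one that MAFG-cell replicate 1 also listed, at 18 fragments against 16, 11 and 11 in GFP cells. Although the gene body spans 104 kb, only 1 anti-MITF peak was listed deep inside it, at 14.1 kb from the start in GFP-cell replicate 2.

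SPRED2 (chromosome 2, 65307175 to 65432599), which acts on RAS in the same way, is the longest gene of the set and had the most peaks. Anti-MITF peaks numbered 6, 8 and 7 in GFP cells against 1, 1 and 0 in MAFG cells (exact permutation p = 0.1, adjusted p = 0.315), and anti-MAFG peaks 7, 6 and 2 against 0, 0 and 0 (p = 0.1, adjusted p = 0.429, exact permutation test). Of its 6 anti-MITF regions called in at least 2 GFP-cell libraries, 4 overlapped an anti-MAFG region. The leading one covered the start, chr2:65429535-65433008, with folds of 7.29, 7.56 and 9.38 (8.08 ± 1.14, SD, n = 3) at 13, 17 and 19 fragments. The leading anti-MAFG region, chr2:65382613-65383508, lay 49.4 to 49.6 kb inside the gene and was called in 2 of 3 GFP-cell libraries at folds of 6.14 and 7.16. The 2 MAFG-cell libraries with an anti-MITF peak at SPRED2 listed different regions: replicate 1 the start, with 24 fragments, and replicate 2 an internal start, chr2:65365571-65367508, with 18. SPRED2 thus passed the 2-library count in MAFG cells without any 1 region being shared.

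**Figure D3:**
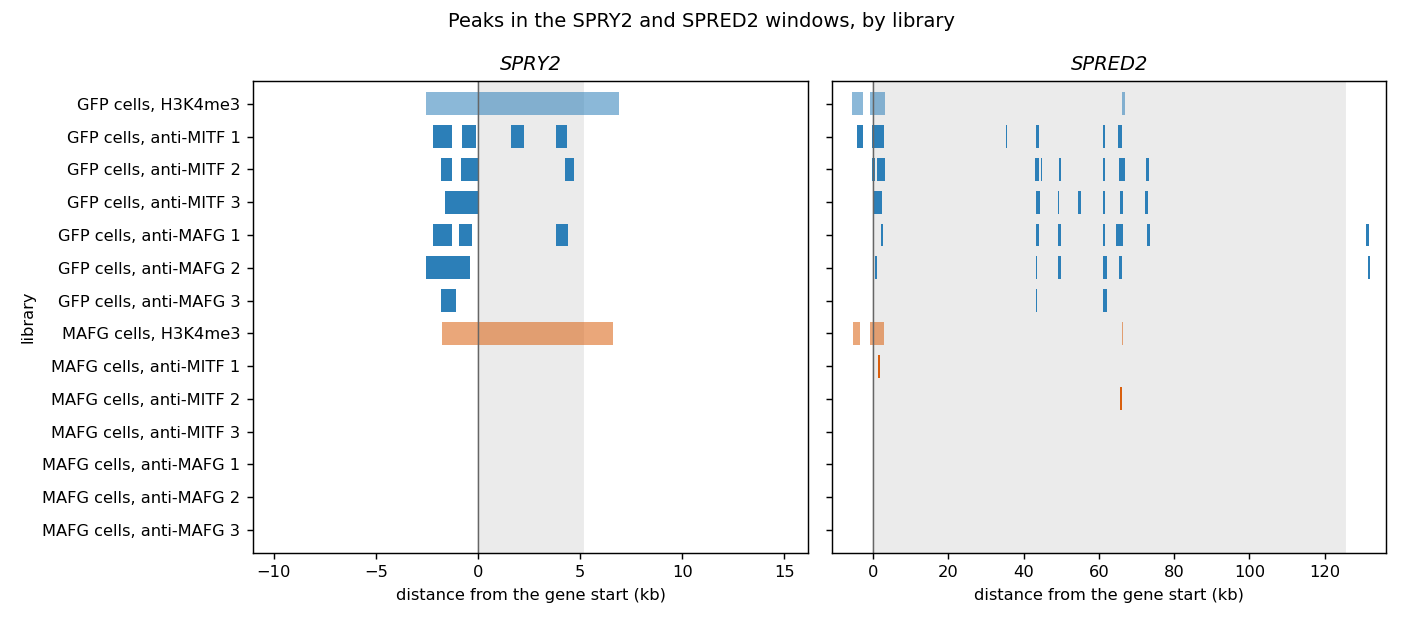
Peaks of the 14 libraries (y axis) along the windows of SPRY2 and SPRED2, by distance from the gene start in kb (x axis), coloured as in the map of DUSP4 and ETV5. At SPRY2 the peaks of both antibodies in GFP cells stack just upstream of the start and no MAFG-cell library has one; at SPRED2 the GFP-cell peaks form columns between 43.5 and 72.8 kb inside the gene, most of them outside H3K4me3.

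The RefSeq promoter table (GRCh38.p14) held 9 starts of 6 of these genes. Of those windows, 4 (each from 250 bases before the start to 20 after it) were overlapped by an anti-MITF peak in at least 2 GFP-cell libraries. They are printed 5′ to 3′ in the direction of the gene because these anti-MITF peaks overlap them, with matches to the motifs searched in capitals.
SPRY2, chr13:80341107-80341376, minus strand: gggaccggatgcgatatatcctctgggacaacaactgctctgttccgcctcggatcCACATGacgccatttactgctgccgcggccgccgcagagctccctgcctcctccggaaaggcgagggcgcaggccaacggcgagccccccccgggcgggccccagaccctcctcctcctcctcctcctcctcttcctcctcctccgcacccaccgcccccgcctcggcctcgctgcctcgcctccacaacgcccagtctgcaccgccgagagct
SPRED1, chr15:38252586-38252855, plus strand: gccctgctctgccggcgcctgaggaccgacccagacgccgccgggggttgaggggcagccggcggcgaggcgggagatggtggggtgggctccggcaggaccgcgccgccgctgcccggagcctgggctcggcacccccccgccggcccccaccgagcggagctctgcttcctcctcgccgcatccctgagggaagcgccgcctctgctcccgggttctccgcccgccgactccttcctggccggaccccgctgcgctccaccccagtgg
SPRED2 first start, chr2:65432580-65432849, minus strand: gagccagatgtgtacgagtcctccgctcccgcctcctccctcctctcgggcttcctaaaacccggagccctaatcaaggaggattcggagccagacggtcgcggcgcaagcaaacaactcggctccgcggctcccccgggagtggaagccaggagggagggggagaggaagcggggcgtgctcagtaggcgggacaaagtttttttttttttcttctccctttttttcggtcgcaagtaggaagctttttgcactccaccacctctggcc
SPRED2 internal start, chr2:65366759-65367028, minus strand: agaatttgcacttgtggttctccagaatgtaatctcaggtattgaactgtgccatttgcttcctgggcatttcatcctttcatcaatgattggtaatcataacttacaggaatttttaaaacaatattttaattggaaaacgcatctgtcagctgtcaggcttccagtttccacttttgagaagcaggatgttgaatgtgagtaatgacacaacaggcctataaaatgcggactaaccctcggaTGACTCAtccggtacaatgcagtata
The SPRY2 window was overlapped in 3 of 3 anti-MITF GFP-cell libraries, and its capitals mark CACATG, the reverse strand of the M-box core CATGTG, at −194 with the start base as 0. The SPRED2 internal window was overlapped by anti-MITF peaks in all 3 lists of GFP cells and 1 of MAFG cells, and by anti-MAFG peaks in 2 lists of GFP cells, and its capitals mark the AP-1 letters TGACTCA at −6. An AP-1 site is bound by FOS and JUN proteins, and its letters form part of the longer element that small MAF dimers bind. The other windows, at SPRED1 and the first SPRED2 start, held no match and were each overlapped by anti-MITF in 2 GFP-cell libraries.

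No summit of the overlapping peaks lay on the letters in capitals. All GFP-cell anti-MITF summits lay outside the printed windows. At SPRY2 the anti-MITF summits were at −580, −566 and −542 bp. Those at SPRED1 were at −320 and −1444 bp, and those at the first SPRED2 start at 467 and 125 bp. The SPRED2 internal window itself was overlapped by no H3K4me3 peak in either line. At the SPRED2 internal start the anti-MITF summits in GFP cells were at −405, 211 and 232 bp, whereas that of MAFG-cell replicate 2 was at −158 bp and that of anti-MAFG GFP-cell replicate 1 at −180 bp, both inside the window. The other anti-MAFG peak there, of GFP-cell replicate 2, had its summit at −266 bp, outside it. Motifs were searched on both strands, and the shares in brackets are of 35116 promoter windows of the same length. They were the E-box CACGTG (6.78%), the M-box core CATGTG (10.1%), the AP-1 site TGACTCA (4.6%), the antioxidant response element core TGACNNNGC (12%), the MAF half-site TGCTGA (15.4%) and the ETS site CCGGAAG (9.69%). The element core opens with the same letters as the AP-1 site, so their matches can overlap. Among the 9 windows the only other match was TGACNNNGC at SPRY4, as GCTTGGTCA at −228.

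ETV4 (chromosome 17, 43527846 to 43546340) is an ETS transcription factor induced by ERK signalling. It had 1, 5 and 3 anti-MITF peaks in GFP cells against 0, 0 and 0 in MAFG cells (exact permutation p = 0.1, adjusted p = 0.315), and 1, 1 and 0 anti-MAFG peaks against 0, 0 and 0 (p = 0.4, adjusted p = 1.0, exact permutation test). One region stood out from the rest of its window. At chr17:43535119-43537244, 9.59 to 10.2 kb inside the gene, anti-MITF folds were 9.92, 9.77 and 11.7 (10.5 ± 1.07, SD, n = 3) at 13, 14 and 16 fragments, with a mean rank of 12%. The same place carried the gene's only anti-MAFG region of at least 2 libraries, chr17:43536065-43537132, at folds of 7.61 and 5.00. The annotation puts it in both ETV4 and the overlapping helicase gene DHX8, so the peak cannot be given to one of them by position. It was the only region of ETV4 in all 3 GFP-cell libraries. In GFP cells it overlapped an H3K4me3 peak of only 418 bp, with a fold of 5.54 and a rank at 92% of its list. The anti-MITF peak of GFP-cell replicate 2 did not reach that small peak. The 1 H3K4me3 library of MAFG cells listed no peak there.

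ETV5 (chromosome 3, 186046314 to 186109089), the closest relative of ETV4 in the set, was the only one of the 10 with peaks of both antibodies in at least 2 MAFG-cell libraries. Anti-MITF peaks numbered 4, 6 and 5 in GFP cells against 1, 1 and 0 in MAFG cells (exact permutation p = 0.1, adjusted p = 0.315). Anti-MAFG peaks numbered 5, 6 and 4 against 1, 1 and 0 (p = 0.1, adjusted p = 0.429, exact permutation test). All 4 of its anti-MITF regions of at least 2 GFP-cell libraries overlapped an anti-MAFG region, the most of any gene beside SPRED2.

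The strongest ETV5 region differed between the antibodies. For anti-MITF it was chr3:186080581-186082091, 27.5 to 27.6 kb inside the gene and over ETV5-AS1, with folds of 10.2, 13.3 and 13.4 (12.3 ± 1.82, SD, n = 3) at 21, 33 and 30 fragments and a mean rank of 7.15%. In MAFG cells its replicates 1 and 2 held 27 and 30 fragments, within the GFP-cell range, and replicate 3 listed no peak. For anti-MAFG it was chr3:186109427-186110652, with summits −799 to −462 bp from the start, folds of 13.2, 11.4 and 10.9 (11.8 ± 1.21, SD, n = 3) at 34, 23 and 20 fragments and a mean rank of 5.07%. There the MAFG-cell replicates 1 and 2 held 18 and 15 fragments, below all 3 GFP-cell libraries, and replicate 3 again listed no peak. Each antibody thus had at ETV5 its best-ranked region of the 10 windows, by mean rank in GFP cells, and in MAFG cells each kept its own region and not the other's.

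**Figure D4:**
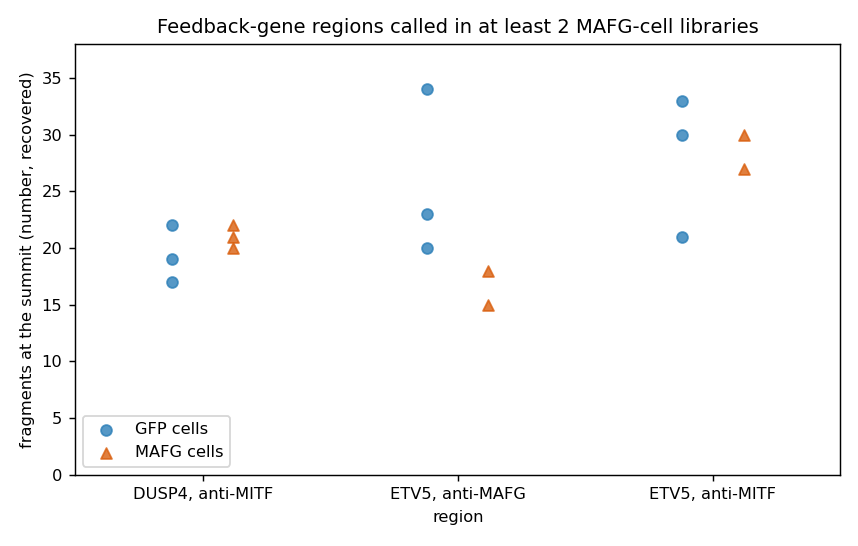
Fragments at the summit (y axis, number recovered from the deposited fold and p) for the 3 regions (x axis) called in at least 2 MAFG-cell libraries. Each library that lists the region has a point, and the numbers are not corrected for coverage. Anti-MITF values of MAFG cells (triangles) lie within those of GFP cells (circles) at DUSP4 and ETV5, and the anti-MAFG values at ETV5, 18 and 15, lie below the GFP-cell values of 34, 23 and 20.

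CCND1 (chromosome 11, 69641156 to 69654474) encodes cyclin D1, which drives entry into S phase with CDK4 or CDK6. Anti-MITF gave 2 peaks in each GFP-cell library and 0, 1 and 0 in MAFG cells (exact permutation p = 0.1, adjusted p = 0.315). Anti-MAFG gave 2 in each GFP-cell library against 0, 0 and 0 (p = 0.1, adjusted p = 0.429, exact permutation test). The leading anti-MITF region, chr11:69642841-69643437, lay 2.06 to 2.1 kb inside the gene with folds of 6.50, 8.04 and 7.43 (7.32 ± 0.776, SD, n = 3). The other, chr11:69638781-69642245, covered the start at 34, 30 and 25 fragments and overlapped the leading anti-MAFG region, chr11:69638582-69641533, whose folds were 6.14, 5.45 and 5.90 (5.83 ± 0.350, SD, n = 3). MAFG-cell replicate 2 listed the start region with 42 anti-MITF fragments, more than any GFP-cell library, at a fold of 3.99. These numbers are not corrected for coverage. Its estimated mean coverage was also higher, at 0.551 fragments per position against 0.389, 0.526 and 0.444 in GFP-cell replicates 1, 2 and 3.

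PHLDA1 (chromosome 12, 76025447 to 76031776), a pleckstrin-homology-like protein often included in scores of MAPK output, had 3, 2 and 2 anti-MITF peaks in GFP cells against 0, 0 and 0 in MAFG cells (exact permutation p = 0.1, adjusted p = 0.315). Anti-MAFG peaks numbered 4, 4 and 3 against 0, 0 and 0 (p = 0.1, adjusted p = 0.429, exact permutation test). They include peaks at chr12:76036860-76037655 and chr12:76041173-76041900, which lie in the neighbouring protein-coding gene NAP1L1. With 5 kb on either side the anti-MAFG difference (MAFG cells minus GFP cells) was −2.67 peaks, against −3.67 with 10 kb. By mean rank, the leading PHLDA1 region for both antibodies lay beyond the far end of the gene and outside H3K4me3. Anti-MITF marked chr12:76020374-76021299 in 3 of 3 GFP-cell libraries at folds of 6.16, 4.73 and 7.02 (5.97 ± 1.16, SD, n = 3), and anti-MAFG marked chr12:76020449-76021115 in 2 of 3 at folds of 9.65 and 6.48. Each antibody also had a region on H3K4me3 at the far end of the gene, called in 3 of 3 GFP-cell libraries. These were chr12:76025190-76026856 (anti-MITF) and chr12:76024662-76026767 (anti-MAFG), with mean folds of 5.19 ± 0.589 and 6.0 ± 0.715 (SD, n = 3). Within 250 bases before the start, a peak was listed by 1 library of each antibody in GFP cells and by 0 in MAFG cells.

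Viewed as regions, the 10 windows held 27 anti-MITF and 20 anti-MAFG regions called in at least 2 GFP-cell libraries. Of the 27 anti-MITF regions, 16 overlapped an anti-MAFG region (59.1% over all anti-MITF regions), and 16 of the 20 overlapped an anti-MITF region (54.1%). H3K4me3 underlay 20 of the 27 (42.7% over all) and 12 of the 20 (26.7%). In MAFG cells the windows held 2 anti-MITF regions called in at least 2 libraries, with H3K4me3 under 0 of them (35.1% over all) and an anti-MAFG region over 0 (14.4%), and 1 anti-MAFG region, on H3K4me3 (13.2%) and with no anti-MITF region (16.4%). Of the 21 anti-MITF regions called in 3 of 3 GFP-cell libraries, 14 were called in 0 of 3 MAFG-cell libraries (71.7% over all) and 2 in at least 2 (17%). Of the 12 such anti-MAFG regions, 11 were called in none (82.3%) and 1 in at least 2 (9.98%). In GFP cells the counts of the feedback genes lay above the shares over all regions for H3K4me3 and for the overlap of anti-MAFG with anti-MITF regions. The shares are over regions of the whole genome, also those far from marked starts. No test was made of these differences, and all 10 genes carry H3K4me3 at their start.

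The depth behind these peaks was small. The 100 anti-MITF peaks of GFP cells for which a number of fragments could be solved, of 101, had 6 to 34 fragments at the summit with a median of 12, and the 72 anti-MAFG peaks had 5 to 37 with a median of 14. The lowest summit listed in any MAFG-cell anti-MITF list had 9 fragments, and 18 of the 100 GFP-cell peaks lay below that. In all, 40 of the 100 lay below 11 fragments, the lowest 5th percentile of those lists, and 81 below 19, their lowest median. For anti-MAFG, 6 of 72 lay below the lowest listed summit of 8 fragments, 13 below the lowest 5th percentile of 10 and 41 below the lowest median of 17. With both antibodies, most GFP-cell peaks of the feedback genes reached the lowest summit that MAFG-cell lists hold. Most of them also lay below the lowest median of those lists. A peak missing from a MAFG-cell list was not shown to be absent from the chromatin, and the part of summit depth in the missing peaks was not tested.

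H3K4me3, a histone mark of active promoters, was present at the start of all 10 genes in both lines, where 57% of protein-coding genes were marked in GFP cells and 53% in the other line. For DUSP4, ETV4, ETV5 and CCND1, as for all genes without a listed start, a peak at either gene end counted. The marked stretches were long. In GFP cells they spanned 3851 to 13470 bp with a median of 8968 bp, against a median of 2602 bp over 11423 marked genes. In MAFG cells they spanned 3557 to 9292 bp with a median of 8198 bp, against 2053 bp over 10629 marked genes. There was 1 H3K4me3 library per line, so no test was possible.

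The widest stretches belonged to the phosphatases, the Sprouty genes and PHLDA1. DUSP4 had 13470 bp in GFP cells and 8950 bp in MAFG cells, SPRY4 12745 and 9195 bp (the wider of 2 peaks), DUSP6 10372 and 9242 bp, PHLDA1 10080 and 9292 bp, and SPRY2 9458 and 8379 bp. At SPRY4 the stretch was listed in MAFG cells as 2 peaks, 142315824 to 142325018 and, just beyond it, 142325334 to 142328008, where GFP cells had 1 peak from 142315575 to 142328319. DUSP4 in MAFG cells likewise had a second, small peak of 475 bp beside the main one. In GFP cells 0.0963% of marked genes were as wide as DUSP4 or wider, and 0.123% as wide as SPRY4. The RAS inhibitors differed from each other, with 8477 and 8017 bp at SPRED1 but 3851 and 3557 bp at SPRED2. ETV4 (5744 and 4150 bp), ETV5 (4999 and 4941 bp) and CCND1 (5852 and 4741 bp) lay between. A width of at least 5 kb was met by 8 of 10 in GFP cells and 6 of 10 in MAFG cells, against 8.19% and 3.41% of marked genes; ETV5 lay just under that bound in both lines.

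The listed peak at the start was narrower in MAFG cells at all 10 genes, where that of SPRY4 was the wider of 2, with a median ratio of 0.889 (0.664 at DUSP4 to 0.988 at ETV5), and the median ratio over 10615 genes marked in both lines was 0.787. Within the GFP-cell list the authors' H3K4me3 fold ran from 47.1 at ETV5 to 124 at SPRY2, which ranked 61 of 13579 peaks. In the MAFG-cell list it ran from 14.9 at ETV5 to 45.7 at CCND1, which ranked 221 of 11580. ETV5, with the strongest factor peaks of the set, thus had its weakest H3K4me3 peak in both lists.

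**Figure D5:**
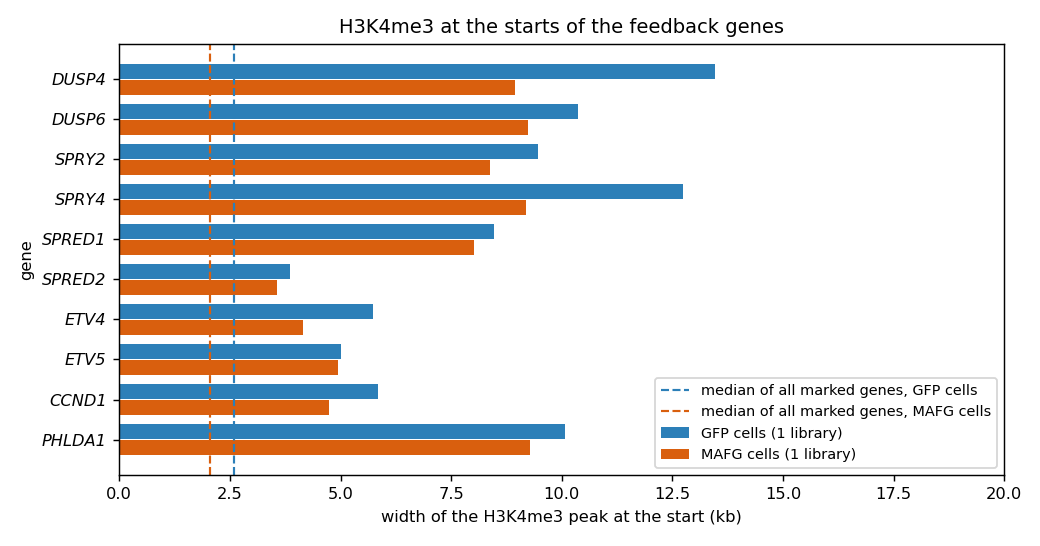
Width of the H3K4me3 peak at the start of each gene (x axis, kb; y axis, gene) in GFP cells (blue) and MAFG cells (orange), 1 library each, with dashed lines at the median of all marked genes, 2602 bp and 2053 bp. Every bar passes the median of its line, and each orange bar is shorter than the blue bar of the same gene; the SPRY4 bar of MAFG cells is the wider of 2 neighbouring peaks.

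Other genes of the pathway were counted by the same rules: 15 of its core, from RAS to ERK with its adaptors and regulators, and 13 further output and feedback genes. In GFP cells 10 of 15 core genes and 11 of 13 output genes had anti-MITF peaks in at least 2 libraries, and 9 of 15 and 8 of 13 had anti-MAFG peaks. Over all protein-coding genes these shares were 49.1% (anti-MITF) and 39.7% (anti-MAFG). More anti-MITF peaks in every GFP-cell library than in any MAFG-cell library were found at 4 of 15 core genes (among them MAP2K1 and MAPK3) and 9 of 13 output genes (among them SPRY1, DUSP5 and EGR1). For anti-MAFG the counts were 4 of 15 and 5 of 13. Of all protein-coding genes, 31.7% had this pattern with anti-MITF and 23.2% with anti-MAFG. The difference between core and output genes was not tested.

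In MAFG cells, 5 of the 28 genes of these lists had anti-MITF peaks in at least 2 libraries (8.46% of all genes). They included the GTPase NRAS, the kinase MAP2K2, the phosphatase DUSP7 and the receptor inhibitor ERRFI1. Anti-MAFG peaks were found in this way at 2 of the 28, MAP2K2 and FOS (5.31% of all genes). The FOS region, chr14:75276994-75278782, ends just before the gene (75278828 to 75282230) and was called in all 3 MAFG-cell libraries but in 1 of 3 from GFP cells. Its folds in MAFG cells were 11.3 to 18.9, at a mean rank of 5.24%. In the whole FOS window, anti-MAFG peaks numbered 2, 0 and 0 in GFP cells against 1, 1 and 1 in MAFG cells. The groups thus overlapped at the level of the gene. The share of regions over the genome with such a pattern was not counted. FOS encodes an AP-1 subunit and is an immediate early target of ERK. No anti-MAFG region of the 10 feedback genes was called in all 3 MAFG-cell libraries; the region upstream of ETV5 came to 2 of 3.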

How the data were processed

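CUT&RUN libraries of WM164 cells were read as 14 deposited peak lists, 1 per library; the IgG samples are not analysed here. Per the submitters' processing notes the tools were cutadapt 1.8.1, Bowtie2 2.4.1, MACS2 2.1.1.20160309 and ChIPseeker 1.32.1 and the build GRCh38 (hg38); which control entered the peak calling is not given in the sources used here. Each deposited peak carries the authors' fold enrichment (a linear ratio), p and q on the authors' −log10 scale, and a position and summit.

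Peaks on chromosomes 1 to 22, X and Y were counted in the window of every protein-coding gene of the RefSeq table of GRCh38.p14, and all 10 symbols matched. That table gives gene bodies and no exons. Overlapping peaks of 1 antibody were joined into regions over its 6 libraries. Ranks are by fold within a list, averaged over the libraries that list the region. H3K4me3 at a start means a peak within 1000 bp. Where the promoter table held no start (DUSP4, ETV4, ETV5 and CCND1), the gene end with H3K4me3 was taken.

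Counts per library were compared by a two-sided exact permutation test over samples, adjusted by Benjamini-Hochberg over 20037 genes. Fragments at a summit were solved from fold and p, assuming a fold of (pileup + 1)/(background + 1) and a Poisson p. This formula is inferred from the values and is not stated by the authors. With a tolerance of 0.002 fragments, 96.1% to 99.3% of summits gave 1 whole number. Medians and lowest values over a list rest on all its summits in MAFG cells and on 2000 summits drawn at random in GFP cells. The counting and the recovery were tested on simulated data.

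The 10 genes, the pathway lists and the tests were chosen with earlier results of these data known. Named were all 10 genes, the best-ranked region of each gene and antibody called in at least 2 of 3 libraries of a line, and pathway genes with such a region in MAFG cells. A result among the pathway genes is not reported here. The 5 kb width, the comparison of antibodies in GFP cells, the fragment recovery and the regions named beside the leading ones were chosen after values were seen. Same-numbered libraries did not pair: their deviations correlated at −0.167 to 0.0105. Alternatives were windows of 5 and 50 kb, summits in place of overlap, a stricter q, lists of equal length, each library left out, a replicate block and H3K4me3 over the start itself. Python 3.11.15, pandas 2.3.3, numpy 2.4.6, scipy 1.17.1 and matplotlib 3.10.9 were used.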

Additional observations from a re-analysis of the deposited data

How the results depend on the processing

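With lists cut to 1836 peaks each, genes of the 10 with anti-MITF peaks in at least 2 GFP-cell libraries went from 10 to 2, with anti-MAFG peaks from 9 to 1, and those with more peaks in every GFP-cell library went to 0 with both antibodies. The difference in anti-MITF peaks (MAFG cells minus GFP cells) then changed sign at SPRY4, SPRED1 and SPRED2, to 0.333 peaks each (exact permutation p = 1.0). With −log10 q of at least 5, MAFG-cell counts were 1 (anti-MITF; 5.48% of all genes) and 0 (anti-MAFG; 3.88%), and 3 genes, against 8, had more anti-MAFG peaks in every GFP-cell library (14.9%). With 50 kb on either side the MAFG-cell counts were 5 (16.2% of all genes) and 3 (10.1%). Leaving out a library in turn, the anti-MITF MAFG-cell count ranged from 1 to 3 (1 without MAFG-cell replicate 1, and 1 without replicate 2) and the anti-MAFG count from 0 to 1 (0 without replicate 1, and 0 without replicate 2). With a MAFG-cell library left out, a peak in at least 2 libraries meant a peak in both remaining ones. The cause of these changes was not tested, beyond fewer peaks or samples entering. Over 240 alternatives of the 20 gene-level differences, 221 were below 0, 16 at 0 and 3 above 0. The 3 above 0 and most of the 16 at 0 came from the lists of equal length. Every other alternative kept lists of unequal length, so its differences below 0 are not separate from list length. With the replicate number as a block (a replicate block), the anti-MITF difference at DUSP4 was −4 peaks (exact sign-flip p = 0.25, the smallest this test can give, reached by 18 of 20 differences), and the numbers did not pair the libraries. H3K4me3 was at all 10 starts under every alternative run, where a peak at either gene end counted for DUSP4, ETV4, ETV5 and CCND1. Summit depths of 5 to 42 fragments limit what a missing peak shows.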
